A study of Papio hamadryas with 17 samples.

Results

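The SLC25 family holds carrier proteins, most of which move metabolites, nucleotides and ions across the inner mitochondrial membrane. Its members in the deposited tables were taken as the genes whose symbol begins with SLC25A, which gave 37 of the 13851 genes of the female table, with 86 transcripts. The measurements are RNA sequencing of kidney cortex biopsies from 17 baboons. The 8 females were 15 to 19 of age and the 9 males 6 to 13, as the labels give it, with no unit stated. All animals were of 1 colony and had eaten a low-salt control chow all their lives, and each gave 1 library from a biopsy taken under ultrasound guidance. The study was designed to compare gene co-expression between the sexes. The library names form 1 series in the females and separate series of 5 and 4 libraries in the males, called A and B here, so sex coincided with library series and with an age gap.

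Many carriers of this family exchange a substrate of the matrix for a substrate of the intermembrane space. The ADP/ATP translocases and the phosphate carrier supply ATP synthase, the aspartate/glutamate and oxoglutarate carriers run the malate-aspartate shuttle, and others carry citrate, dicarboxylates, acylcarnitines, glutathione, iron or coenzymes. In the kidney the proximal tubule is known for its density of mitochondria and its use of fatty acids, and the thick ascending limb is rich in mitochondria as well. LRP2, the endocytic receptor megalin, marks the proximal tubule, and UMOD, uromodulin, marks the thick ascending limb.

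Values are called signal here. Signal is the deposited scaled read abundance less its offset of 1, summed over the transcripts of a gene. It was taken as not divided by transcript length, so the order of genes by signal is read as an order of read abundance and not of molecules. The male table was held in part and covered 48 of the 86 member transcripts. All transcripts were in both tables for 10 members, some for 17 and none for 10, and levels that involve males rest on the shared transcripts.

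Of the 17 libraries, 3 stood apart from the others and are called muscle-rich: female 1, female 2 and male 6. Over the 9 skeletal muscle marker genes found in the female table, the summed signal was 115153 in female 1 and 172814 in female 2, against 3.18 to 25.5 in the other 6 females, and all 9 genes were higher in both libraries. Over the 3 of these genes with shared transcripts, male 6 had a sum of 55993, against 0.955 to 21.98 in the 14 other libraries. LRP2 signal was 0.947 to 7.04 in the muscle-rich libraries and 7.98 to 294.5 in the others, and UMOD signal was 12.3 to 938.6 against 1669 to 11030, so the defining tubule markers of the labelled tissue were low in these 3. Fat markers were higher there too, with a sum of 155 in female 1 and 173 in female 2 against 0.829 to 3.04 in the other 6 females. So were stromal and smooth muscle markers as a sum, with 862 to 3414 over shared transcripts in the 3 libraries and 108 to 560 in the 14, though only 2 of the 6 genes lay above the kidney females in both muscle-rich females. The 6 other females and the 8 other males are called kidney females and kidney males. Depth differed: the value of about 1 read was 0.237 to 0.318 signal units in the muscle-rich libraries and in female 6, and 0.0531 to 0.0946 in the other 13.

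In kidney, the gene under an SLC25A symbol with the most read abundance was SLC25A5 (gene33366), the ADP/ATP translocase of proliferating cells. Over all its transcripts it had a signal of 89.2 ± 16.04 (SD, n = 6) in the kidney females, from 73.5 to 109. SLC25A1, the citrate carrier, followed at 58.3 ± 15.6, SLC25A3, the phosphate carrier, at 52.7 ± 18.6, and SLC25A4, the translocase of heart and skeletal muscle, at 50.2 ± 15.7 (SD, n = 6 each). The last 3 did not differ beyond their spread. SLC25A39, which carries glutathione, had 43.3 ± 9.36, SLC25A42, the coenzyme A carrier, 38.6 ± 13.7, and SLC25A11, the oxoglutarate carrier, 34.3 ± 6.91 (SD, n = 6 each). At the low end stood SLC25A14 at 1.69 ± 0.488, SLC25A16 at 1.65 ± 0.610 and SLC25A21, the oxodicarboxylate carrier, at 1.15 ± 0.957 (SD, n = 6 each). The genes under an SLC25A symbol together made up 0.128% to 0.193% of all signal in the kidney females.

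Over the 14 kidney libraries of both sexes, on shared transcripts, the 6 members of highest mean signal were SLC25A5 at 140.1 ± 56.0, SLC25A3 at 65.3 ± 19.0, SLC25A1 at 55.5 ± 20.3, SLC25A10, the dicarboxylate carrier, at 49.9 ± 29.1, SLC25A29, a basic amino acid carrier, at 26.9 ± 8.42, and SLC25A44, a branched-chain amino acid carrier, at 25.7 ± 8.08 (SD, n = 14 each). SLC25A3, SLC25A1 and SLC25A10 overlapped widely, as did SLC25A29 and SLC25A44. Medians in place of means gave the same 6 members.

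Carriers named by gene number in the tables were read separately, after their values had been seen. ADP/ATP translocase 3 (LOC101025041) had a signal of 28.6 to 74.9 in the kidney females, with a median of 61.4, and 33.2 and 32.5 in the muscle-rich females. A second entry described as ADP/ATP translocase 3-like (LOC101000644) had 81.5 to 105 in the kidney females, with a median of 90.3 above the 85.3 of SLC25A5, and 38.0 and 29.7 in the muscle-rich females. An ADP/ATP translocase 2 pseudogene (LOC101026587), which may share reads with SLC25A5, had 2.72 to 7.48 in the kidney females. The near-identical sequences of these translocases make the split of reads among them uncertain. SCaMC-1 (LOC101023671), an ATP-magnesium/phosphate carrier, had 1.36 to 2.25 in the kidney females and 5.68 and 4.10 in the muscle-rich females. ADP/ATP translocase 3 is otherwise known as SLC25A6 and SCaMC-1 as SLC25A24. SLC25A2, SLC25A15, SLC25A18, SLC25A23 and SLC25A31 were not analysed here.

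The muscle-rich libraries had a different carrier profile from the kidney libraries. In both muscle-rich females 20 of the 37 members lay above all 6 kidney females, 8 lay below all of them and 9 overlapped. The background for these counts is high, since 45.3% of all genes lay above and 18.1% below in the same comparison, so the members' counts are near it. These libraries were set apart by their measured values, so the contrast is a description with no test. In a biopsy, fewer cells of a type and less RNA per cell cannot be told apart. When each library was scaled to its median gene, 15 members lay above and 12 below, against 34.5% and 26.9% of all genes, and SLC25A1, SLC25A28, SLC25A30, SLC25A37 and SLC25A44 were no longer among those above.

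**Figure D1:**
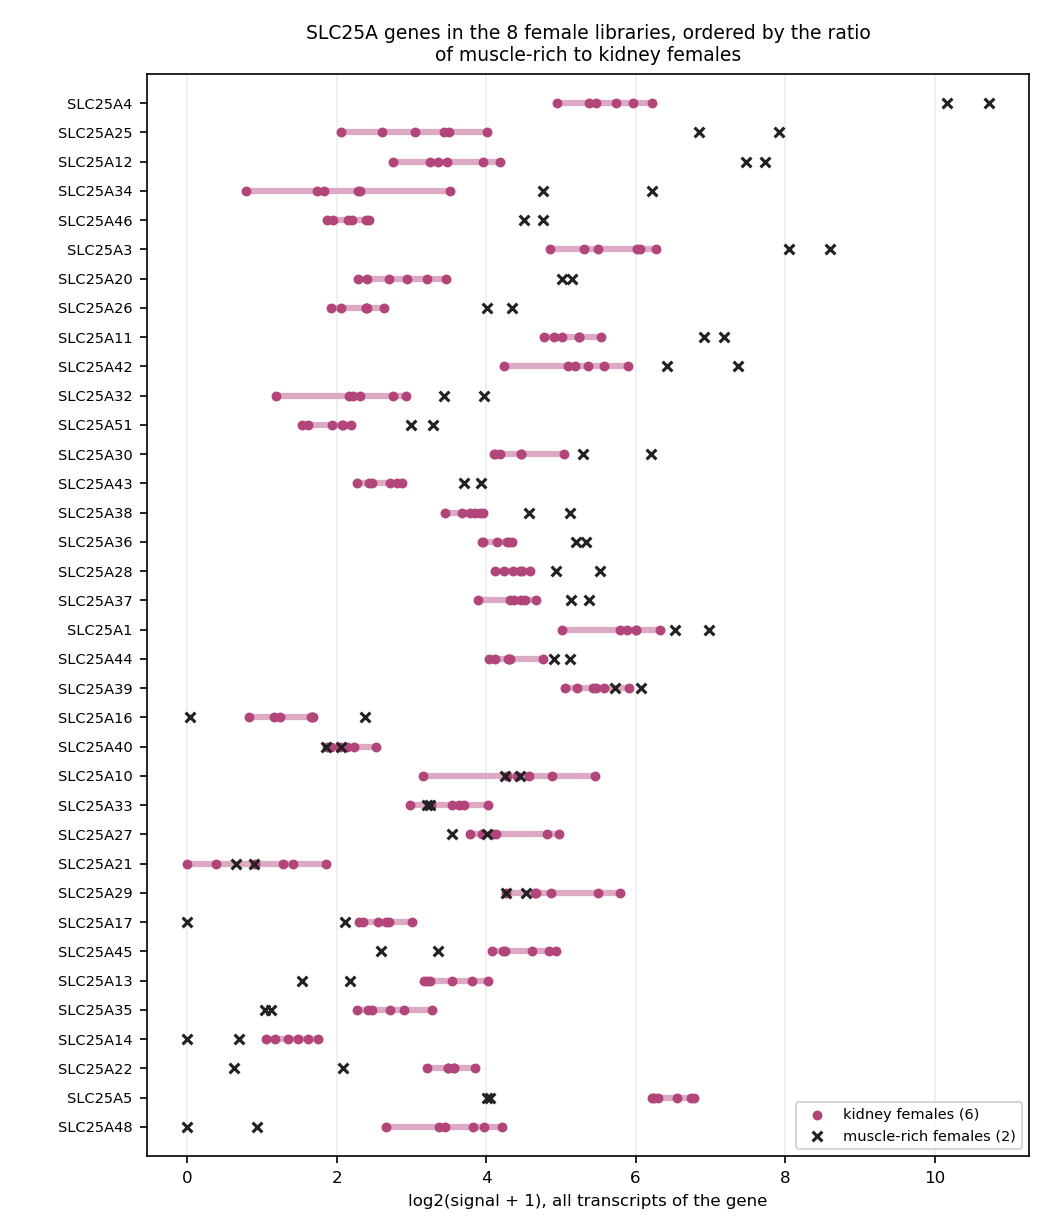
Each row is 1 of the SLC25A genes reported by name and the x axis is log2(signal + 1) over all its transcripts in the 8 female libraries. Dots are the 6 kidney females with their range as a bar, and crosses are the 2 muscle-rich females; crosses lie to the right of all dots in 20 rows, from SLC25A4 downward, and to the left of all dots in 8, with SLC25A48 and SLC25A5 at the bottom.

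The ADP/ATP translocases diverged between muscle-rich and kidney females. SLC25A4 (gene10824, sequence NC_018156.2, 179214170 to 179221369, plus strand) had a signal of 1151 in female 1 and 1692 in female 2. In the kidney females its lowest signal was 29.9, its median 47.8 and its highest 73.8, which makes the muscle-rich mean 28.3 times the kidney mean. Of the summed signal of the genes under an SLC25A symbol, SLC25A4 alone made up 46.2% and 47.4% in the muscle-rich females and 5.12% to 9.74% in the kidney females. SLC25A5 (sequence NC_018172.2, 108403655 to 108407143, plus strand) went the other way, with 15.1 and 15.6 in the muscle-rich females, and 73.5, 85.3 and 109 as the lowest, median and highest of the kidney females. It had 19.9 in male 6 and 128 to 243 in the kidney males. All 3 muscle-rich libraries were therefore below all 14 others for SLC25A5. The ratio of SLC25A4 to SLC25A5 signal was 76.0 and 109 in the muscle-rich females and 0.396 to 0.693 in the kidney females, with a median of 0.599. A ratio taken within a library does not change with the scaling of that library.

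The aspartate/glutamate carriers, which move aspartate out of the matrix in the malate-aspartate shuttle, split in the same manner in the females. SLC25A12 (gene21275, sequence NC_018163.2, 57505311 to 57640633, minus strand), known as aralar, had 177 and 211 in the muscle-rich females. Its lowest, median and highest signal in the kidney females were 5.73, 9.69 and 17.3. In all females but female 6 most of that signal was in variant X4, which was compared in females only. On the shared variants X1 to X3 male 6 did not follow the muscle-rich females: it had 0.0366 against 1.96 to 5.69 in the kidney males, while females 1 and 2 had 7.72 and 9.72 against 1.81 to 5.20. SLC25A13 (gene6469, sequence NC_018154.2, 106211524 to 106411051, plus strand), known as citrin and for its part in the urea cycle of liver, had 3.55 and 1.89 in the muscle-rich females and 2.35 in male 6. Kidney females had 7.96 to 15.4 and kidney males 21.8 to 39.5, so SLC25A13 was lower in all 3 muscle-rich libraries than in all 14 others. The ratio of SLC25A12 to SLC25A13 was 49.7 and 112 in the muscle-rich females against 0.439 to 2.09 in the kidney females.

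**Figure D2:**
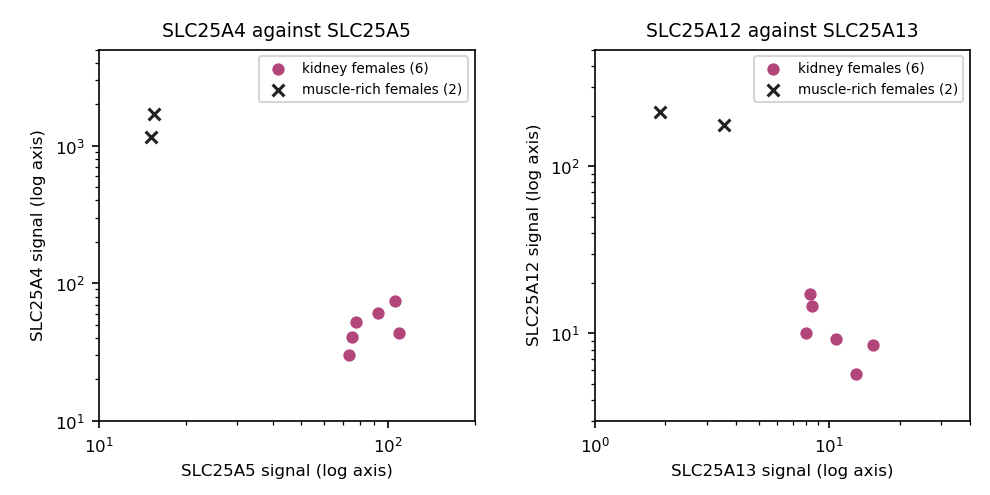
Signal of SLC25A4 against SLC25A5 (left) and of SLC25A12 against SLC25A13 (right) in the 8 female libraries, on logarithmic axes. Crosses are the 2 muscle-rich females at the upper left of each panel, and dots the 6 kidney females at the lower right.

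SLC25A3 was the 1 member with transcripts on both sides of the contrast. Its summed signal was 266 and 386 in the muscle-rich females and 28.0 to 76.3 in the kidney females. In the muscle-rich females 72.0% and 67.7% of it belonged to transcript variant X5, which held at most 0.000477% in any kidney female. Variant X3 held 8.34% and 10.3% in the muscle-rich females, and a lowest share of 83.5%, a median of 89.1% and a highest of 94.2% in the kidney females. The smaller variants divided likewise. Variant X2 held 6.15% and 8.41% against 0% in the 6 kidney females, and variant X4 5.77% to 12.3% in the kidney females against 0% and 5.18e-06%. In males only X3 and X4 were in the held part: X3 had a signal of 34.4 in male 6 and 47.8 to 87.9 in the kidney males, and X4 was at 0.00005 in male 6 and at 6.00 to 10.3 in the kidney males. The phosphate carrier is known to have a muscle isoform and a general isoform that differ by 1 exon. Which variant holds which exon was not determined, as no transcript sequence was at hand, and the values of variants depend on how the authors' tool divided shared reads.

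**Figure D3:**
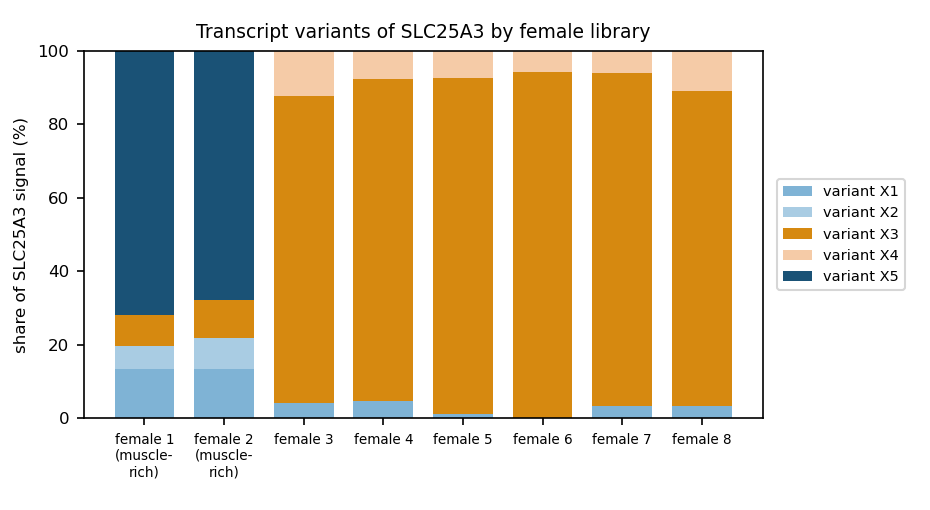
Share of the SLC25A3 signal (y axis, percent, not corrected for length) in each of its 5 transcript variants, by female library. Variant X5 fills 72.0% and 67.7% of the bars of females 1 and 2 and is not visible in females 3 to 8, where variant X3 fills at least 83.5%.

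Further members of varied roles were higher in the muscle-rich females. SLC25A25, an ATP-magnesium/phosphate carrier regulated by calcium, had 114 and 242 against 3.15 to 15.2 in the kidney females, 21.0 times the kidney mean. All 3 of its transcripts lay above the kidney females. SLC25A34 had 26.03 and 73.2 against 0.731 to 10.5, and SLC25A46, an outer membrane protein of mitochondrial dynamics, had 21.8 and 26.2 against 2.65 to 4.40. SLC25A20, the carnitine/acylcarnitine carrier of fatty acid oxidation, had 31.2 and 34.4 against 3.88 to 9.99. SLC25A29, once described as a carrier of the same type, overlapped, with 18.2 and 22.1 against 18.2 to 54.4. Among the coenzyme carriers, SLC25A26 for S-adenosylmethionine had 15.1 and 19.4 against 2.79 to 5.22, and SLC25A42 for coenzyme A had 84.7 and 165 against 17.8 to 58.7. SLC25A32 for folate and FAD had 14.7 and 9.78 against 1.27 to 6.63, and SLC25A51 for NAD had 8.76 and 6.94 against 1.91 to 3.59. SLC25A36, a pyrimidine nucleotide carrier, had 39.3 and 35.7 against 14.4 to 19.4. SLC25A38, a glycine carrier, had 33.7 and 22.7 against 9.94 to 14.6, SLC25A43 had 14.2 and 12.0 against 3.82 to 6.35, and SLC25A44 had 29.1 and 33.8 against 15.4 to 26.2. The separation from the kidney females was thus narrow for SLC25A44 and wide for SLC25A25.

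The carboxylate carriers differed among themselves. SLC25A11 had 120 and 144.5 in the muscle-rich females against 26.4 to 45.6, and its variant X2 made up 81.5% and 88.7% of that signal, against 0.542% to 56.3% in the kidney females. SLC25A1 had 90.9 and 125 against 31.5 to 79.3. Within SLC25A1, variant X1 held 87.0% and 69.8% in the muscle-rich females and 14.2% to 41.5% in the kidney females. SLC25A10 overlapped, with 18.0 and 20.8 against 7.93 to 42.8. The iron carriers SLC25A37 (mitoferrin 1) and SLC25A28 (mitoferrin 2) were both higher, with 34.1 and 40.4 against 13.9 to 24.5, and 29.5 and 45.1 against 16.4 to 23.1. The ratio of SLC25A28 to SLC25A37 was 0.866 and 1.12, inside the kidney range of 0.836 to 1.41.

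The members lower in the muscle-rich females included carriers of glutamate and of choline. SLC25A48, a choline carrier of the inner membrane, had 0.909 in female 1 and 0 in female 2, and a lowest, median and highest signal of 5.35, 11.6 and 17.5 in the kidney females. It had 1.38 in male 6 and 6.02 to 23.2 in the kidney males, so all 14 kidney libraries were higher. SLC25A22, the glutamate carrier, had 3.26 and 0.543 against 8.24 to 13.4. SLC25A17, the peroxisomal carrier of cofactors, had at most 0.00001 in female 1 and 3.32 in female 2, against 3.91 to 7.03. SLC25A35 had 1.18 and 1.05 against 3.81 to 8.65, SLC25A45 had 9.23 and 5.05 against 15.9 to 29.7, and SLC25A14 had 0.625 and 0 against 1.07 to 2.36. The values of SLC25A14 and SLC25A17 in the muscle-rich females rest on few reads. Among the uncoupling-like carriers SLC25A14, SLC25A27 and SLC25A30, SLC25A27 overlapped, with 10.6 and 15.1 against 12.8 to 30.4, and SLC25A30 was higher, with 38.3 and 73.1 against 16.3 to 31.9. SLC25A16, SLC25A21, SLC25A33, SLC25A39 and SLC25A40 overlapped as well. For the glutathione carriers the ratio of SLC25A39 to SLC25A40 was 16.4 and 25.4 against 9.46 to 16.05.

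On the shared transcripts, all 3 muscle-rich libraries lay below all 14 others for 7 of 27 members (SLC25A5, SLC25A13, SLC25A14, SLC25A17, SLC25A22, SLC25A35 and SLC25A48), where 15.4% of all genes did, and above for 0 of 27, where 15.7% did. The shared transcripts are an uneven sample of the family. Of the 27 member transcripts above the kidney females in both muscle-rich females, which 36.3% of all transcripts did, 5 were in the held male part, of the 16 below, as 15.9% of transcripts were, 15 were held, and of the 38 described that overlapped 24 were. Leaving out male 6 put 3 members above (SLC25A12, SLC25A38 and SLC25A42) and 7 below, where 20.4% and 21.5% of all genes did. Leaving out female 1 gave 0 above and 9 below (16.7% and 18.8% of genes), and leaving out female 2 gave 0 above and 9 below (17.6% and 17.5% of genes). With median scaling 1 member lay above, SLC25A38, and 5 below, against 21.5% and 12.6% of genes. In the authors' deposited table of females, which assigns a co-expression module colour to each transcript, 34 of the 86 member transcripts (39.5%) were in the blue module, against 41.7% of all transcripts. All 27 member transcripts above were blue and 0 of the 16 below, as were 91.3% of all transcripts above and 0% of those below. The colours come from the table of these same female libraries, so they are not independent of the contrast.

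Genes that work beside the carriers were read from fixed lists. All 3 outer membrane channels lay above the kidney females in both muscle-rich females, with VDAC1 at 469 and 701 against 52.5 to 73.2. Of the 7 genes of the carrier import machinery found, 6 lay above and 0 below, with TIMM22, the channel of the translocase that inserts carriers, at 29.8 and 32.8 against 6.05 to 13.5. Of 14 other inner membrane transporters, 10 lay above and 3 below. Over all genes 45.3% lay above and 18.1% below, as given earlier for this comparison. MCU, the calcium uniporter, had 67.3 and 66.5 against 5.32 to 13.7, whereas SFXN1, a serine transporter, had 2.13 and 4.42 against 7.48 to 32.7. UCP3, the uncoupling protein of skeletal muscle, had 53.7 and 99.1 against 0 to 0.215, and UCP2 had 69.4 and 51.6 against 5.25 to 12.4. Of 6 regulators of mitochondrial biogenesis, 4 lay above and 2 below, with the coactivator PPARGC1A at 18.9 and 15.1 against 24.5 to 60.4.

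Among the 14 kidney libraries, members were compared with LRP2 to ask which carriers follow the proximal tubule content of a biopsy. LRP2 signal was 7.98 in female 3, well below the next library at 41.2 (female 4), and reached 294.5. Every kidney female (at most 120.9) was below every kidney male (at least 133.7), so the gradient and sex are partly the same axis. With 27 members tested, 6 were called at an adjusted p under 0.05, all of them higher where LRP2 was higher. The background was 20.1% of 9414 genes called and 17.4% called in the positive direction, against 2.64% in the negative, so the members' count is near it. The median r was 0.34 over the members and 0.28 over all genes. Correlations are Pearson r of log2(signal + 1), with two-sided permutation p-values adjusted over all genes.

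The called members were carriers of carboxylates, amino acids and adenine nucleotides. SLC25A1 had r = 0.92 (adjusted p = 0.000281, permutation test, Spearman's rho 0.86, n = 14), based on variant X2. Its lowest, median and highest signals were 18.4, 40.6 and 52.2 in the kidney females and 40.1, 71.8 and 89.4 in the kidney males. Within the sexes r was 0.99 in females and 0.57 in males. SLC25A10 had r = 0.90 (adjusted p = 0.000459, permutation test, rho 0.90), with 7.93, 21.7 and 42.8 as the lowest, median and highest signals in the kidney females and 27.8, 75.5 and 95.8 in the kidney males. Its r was 0.93 within females and 0.43 within males. SLC25A13 had r = 0.87 (adjusted p = 0.000281, permutation test) and the highest rho of the members tested, 0.97. It rose with LRP2 within both sexes, with r = 0.72 in females and 0.93 in males.

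SLC25A21 had r = 0.79 (adjusted p = 0.0135, permutation test, rho 0.85), at a low level of 0.00029 to 2.61 in the kidney females and 2.18 to 4.71 in the kidney males. SLC25A44 had r = 0.73 (adjusted p = 0.0101, permutation test, rho 0.90), with 15.4 to 26.2 in the kidney females and 20.2 to 39.2 in the kidney males. Its r was 0.25 within females and 0.89 within males. SLC25A5 had r = 0.67 (adjusted p = 0.0307, permutation test, rho 0.90), and within the sexes r was -0.34 in females and 0.84 in males. Kidney females had 73.5 to 109 with no rise along LRP2, and kidney males 128 to 243. The slope on LRP2 of SLC25A5 was -0.06 in females and 0.75 in males, and their difference did not pass adjustment (limma interaction term, adjusted p = 0.101). No member's slope differed between the sexes after adjustment, 10 of 27 had an unadjusted p under 0.05, and over all genes 0 of 9414 were called and 2185 had an unadjusted p under 0.05.

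**Figure D4:**
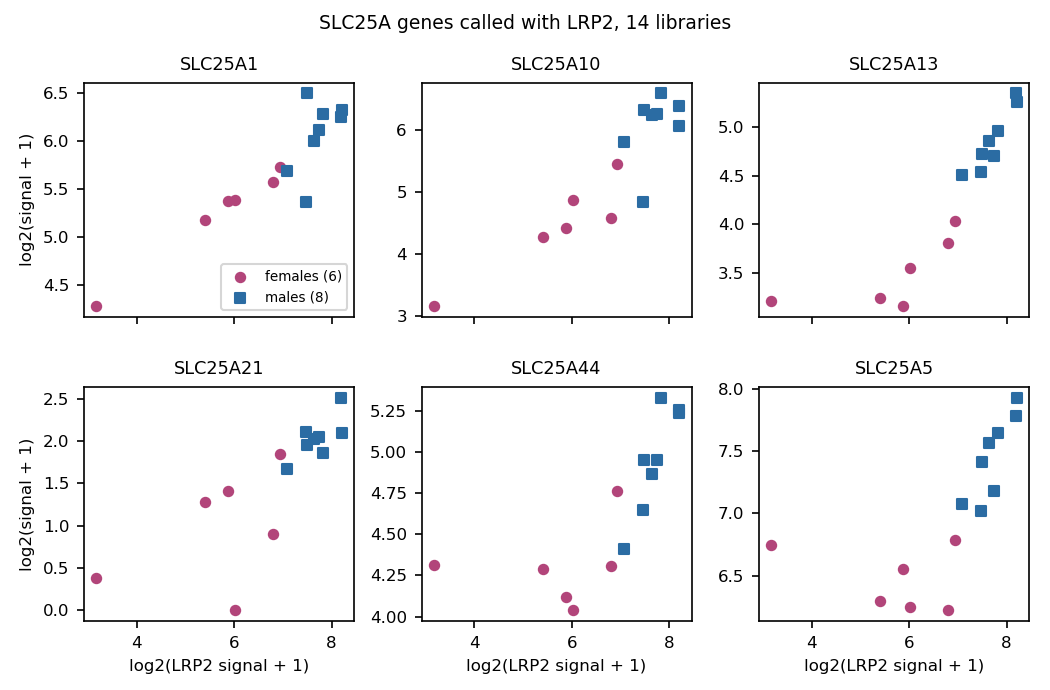
Each panel plots log2(signal + 1) of 1 called member (y axis) against log2(LRP2 signal + 1) (x axis) in the 14 kidney libraries, with females as dots and males as squares. All males lie to the right of all females. SLC25A13 is level over females 3, 4 and 8, which are lowest in LRP2, and rises above them, whereas SLC25A44 and SLC25A5 are level among the females.

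Single libraries and scaling moved the LRP2 counts. Within the 6 females or the 8 males alone 0 of 27 members were called, against 0% and 1.74% of all genes, and 3 and 12 members had an unadjusted p under 0.05 (exact permutation tests). The few permutations of 6 libraries gave no gene a p under 0.00139 (exact permutation test). The 0 in females therefore cannot decide whether members follow LRP2 there. Without female 3, the library lowest in LRP2, 11 members were called, against 36.8% of all genes, and without females 3 and 4, the libraries farthest from the median, 14 were, against 44.9%. The 6 members named above then had r between 0.79 and 0.98. In both settings 1 called member was negative, SLC25A37, at r = -0.69 and -0.81 (adjusted p = 0.0291 and 0.00726, permutation tests). Over all 14 libraries SLC25A37 had r = -0.45 (adjusted p = 0.261, permutation test) and rho = -0.83 (adjusted p = 0.00327, permutation test). Its r was 0.45 within females and -0.81 within males. With each library scaled to its median gene, 7 members were called, 4 positive (SLC25A1, SLC25A10, SLC25A13 and SLC25A44) and 3 negative (SLC25A14 at r = -0.69, SLC25A27 at -0.73 and SLC25A29 at -0.89), against 19.9% of all genes. For SLC25A29 r was -0.69 without that scaling, and -0.90 in females and -0.21 in males. It rested on 2 libraries, with r = -0.32 without female 3 and 0.13 without females 3 and 4, whose signals on shared transcripts, 49.8 and 38.8, were the highest of the 14. All 11 proximal tubule markers tested beside LRP2 were called positive, against 17.4% of all genes, with sums of 211 to 3665 in the kidney females and 3523 to 8221 in the kidney males. Markers of other cells moved with LRP2 too. Of 3 distal convoluted tubule markers 2 were called positive, SLC12A3 at r = 0.89 and TRPM6 at 0.75, and of 5 stromal and smooth muscle markers 1 was called negative, COL1A1 at -0.68, where 2.64% of genes were. The part of cell content in the members' relations was not tested.

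With UMOD no member was called. Of 27 members 0 passed (permutation test, 0 of 27 with an unadjusted p under 0.05), against a background of 0.627% of genes, and the same was found with Spearman's rho, where 1 of 27 had an unadjusted p under 0.05, and with median scaling, where 4 did and 3.56% of genes were called. The members with the highest r were SLC25A14 at 0.52 (adjusted p = 0.339, permutation test), SLC25A27 at 0.51 and SLC25A3 at 0.48. Of the 6 thick ascending limb markers, UMOD itself among them, only 2 were called with UMOD, where 0.627% of all genes were. Of 5 stromal and smooth muscle markers 1 was called. The relation of members to the thick ascending limb content of a biopsy was not tested beyond UMOD. LRP2 and UMOD had r = -0.39 with each other over these 14 libraries, and the members called with LRP2 had r from -0.39 (SLC25A1) to 0.07 (SLC25A5) with UMOD. Scaling to the median gene moved this: SLC25A44 was then at r = -0.70, SLC25A10 at -0.69, SLC25A1 at -0.68 and SLC25A13 at -0.66 with UMOD (adjusted p = 0.0813, 0.0870, 0.0803 and 0.114, permutation tests). These are the 4 members with an unadjusted p under 0.05 on that scale, and all 4 were called with LRP2.

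The comparison of the sexes, which the study was designed around, called 4 of the 27 members tested over all 17 libraries. SLC25A40, SLC25A10 and SLC25A13 were lower in females and SLC25A37 was higher. The background was 13.6% of 9415 genes called, 13.2% lower in females and 0.372% higher. The median difference, female minus male on the log2(signal + 1) scale, was -0.32 over the members and -0.28 over all genes. Single members are read against that shift.

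SLC25A40 (gene6550, sequence NC_018154.2, 114680023 to 114738799, plus strand), a glutathione carrier, had 2.67, 3.26 and 4.78 as its lowest, median and highest signals in the kidney females and 4.98, 9.12 and 14.7 in the kidney males. The muscle-rich libraries had 3.16, 2.62 and 1.79. The kidney sexes did not overlap. The difference was -1.02 (SE 0.27, adjusted p = 0.0209, limma), and SLC25A40 was called in every one of the 17 fits that left out 1 library. SLC25A10 (gene28137, sequence NC_018167.2, 73409183 to 73418091, plus strand) differed by -1.33 (SE 0.40, adjusted p = 0.0363, limma), with overlap between the highest kidney female at 42.8 and the lowest kidney male at 27.8. SLC25A13 differed by -1.42 (SE 0.44, adjusted p = 0.0406, limma), and its kidney females, at most 15.4, were all below its kidney males, at least 21.8. Of the 17 fits that left out 1 library, SLC25A10 was called in 6 (without females 2, 5 or 7 or males 1, 2 or 6) and SLC25A13 in 3 (without females 6 or 7 or male 6).

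SLC25A37 was the exception in direction. Its shared transcript, variant X2, makes up 31.3% of the gene's signal in kidney females, and the larger variant X1 was compared in females only. Variant X2 had 3.67, 4.97 and 12.3 as its lowest, median and highest signals in the kidney females and 1.11, 3.10 and 3.44 in the kidney males, without overlap. The difference was 0.90 (SE 0.28, adjusted p = 0.0396, limma), and the call was lost without females 5, 6 or 8 or males 1, 4, 7 or 9. The highest value, 12.3, was in female 6, the shallowest of the kidney females, and the next was 8.00 in female 8. Its partner SLC25A28 differed by 0.20 (adjusted p = 0.623, limma), on variant X1 alone, which makes up 33.4% of that gene's signal in kidney females.

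**Figure D5:**
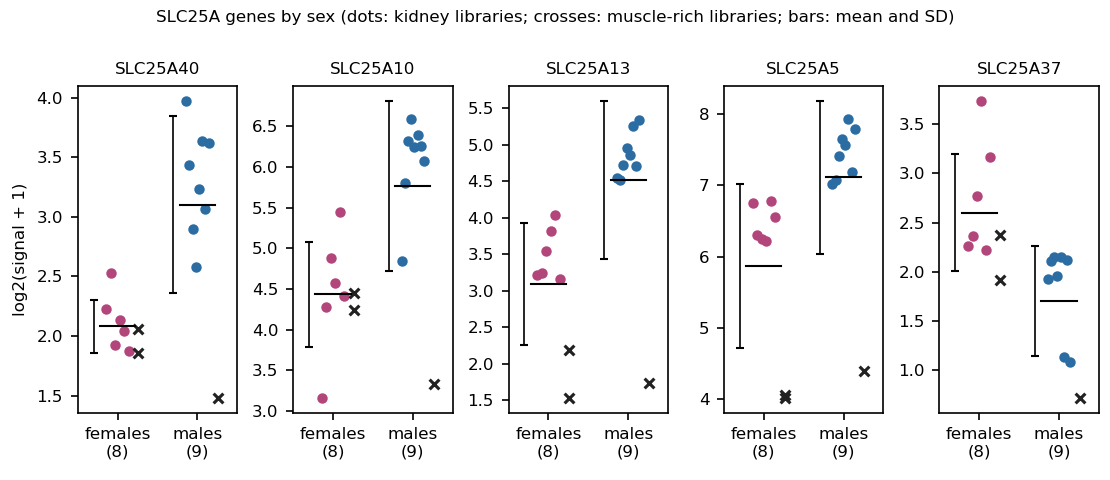
Log2(signal + 1) on shared transcripts (y axis) of 5 members in females and males. Dots are kidney libraries, crosses the 3 muscle-rich libraries, and bars the mean and SD over all 8 females or 9 males; the kidney dots of the sexes do not overlap for SLC25A40, SLC25A13, SLC25A5 and SLC25A37, and they do for SLC25A10.

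Without the 3 muscle-rich libraries 12 of 27 members were called, against 38.6% of all genes. Of these 11 were lower in females, where 36.3% of genes were, SLC25A1, SLC25A3, SLC25A5, SLC25A10, SLC25A13, SLC25A17, SLC25A21, SLC25A22, SLC25A38, SLC25A40 and SLC25A44, and SLC25A37 was higher, where 2.24% of genes were. SLC25A13 then differed by -1.36 (SE 0.18, adjusted p = 9.10e-05, limma), SLC25A40 by -1.18 (SE 0.20, adjusted p = 0.000406) and SLC25A5 by -0.98 (SE 0.17, adjusted p = 0.000423). The kidney sexes did not overlap for SLC25A5, SLC25A13 and SLC25A40, all lower in females, as for 11.9% of genes, nor for SLC25A37, as for 0.319% of genes in that direction. Leaving out male 6 alone moved the count over the other 16 libraries to 11, and the called genes from 1276 to 2334 of 9415.

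Scaling, age and library series changed these calls. Scaling each library to its median gene moved the median of all genes from -0.28 to 0.04 and the called genes from 35 higher and 1241 lower to 136 higher and 240 lower. That left 3.99% of genes called. On that scale SLC25A37 (1.21, adjusted p = 0.0281, limma) and SLC25A11 (0.97, adjusted p = 0.0177) were called higher in females, while SLC25A40 (-0.68, adjusted p = 0.0904), SLC25A10 (-0.94, adjusted p = 0.147) and SLC25A13 (-1.05, adjusted p = 0.136) were not called. Upper quartile scaling called the same 2 members, SLC25A11 and SLC25A37, against 3.8% of genes. The SLC25A11 calls rest on variant X3 alone, which makes up 48.6% of that gene's signal in kidney females. In the 14 kidney libraries with median scaling, 9 members were called, against 29.7% of genes: SLC25A5, SLC25A10, SLC25A13, SLC25A21 and SLC25A40 lower, and SLC25A11, SLC25A27, SLC25A29 and SLC25A37 higher. With age as a term 0 of 27 members and 1 of 9415 genes (0.0106%) were called (limma, 3 members with an unadjusted p under 0.05), and as the ages do not overlap, sex and age cannot be told apart. Against series A males alone SLC25A10, SLC25A13, SLC25A21 and SLC25A40 were called, against 7.62% of genes, and against series B males, which include male 6, 0 members and 0.0106% of genes were, with 3 members at an unadjusted p under 0.05 (limma). In the 14 kidney libraries SLC25A5, SLC25A10, SLC25A13, SLC25A21, SLC25A22 and SLC25A40 were called against each series, where 6 members and 20.5% of genes were called with series A and 11 members and 32% of genes with series B. All females belong to 1 series of their own, so sex and series cannot be told apart.

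LRP2 moved with sex, and so did the proximal tubule markers, of which 11 of 12 were lower in females over the 14 kidney libraries, against 36.3% of all genes. Other lists had members lower in females there as well: 2 of 3 distal convoluted tubule markers, 2 of 3 blood markers, 2 of 6 thick ascending limb markers and 1 of 4 immune markers. With LRP2 as a term in those libraries, 4 members were called lower in females: SLC25A13 at -0.87 (adjusted p = 0.0150, limma), SLC25A3 at -0.93 (adjusted p = 0.0277), SLC25A40 at -1.28 (adjusted p = 0.0134) and SLC25A5 at -0.94 (adjusted p = 0.0183), against 21.6% of all genes. SLC25A10 then differed by -0.55 (adjusted p = 0.211, limma) and SLC25A37 by 1.10 (adjusted p = 0.0612). Within the sexes SLC25A40 had r = -0.35 with LRP2 in females and 0.06 in males. LRP2 did not overlap between the kidney sexes, so in that fit sex and LRP2 cannot be fully told apart. The fit also used 1 slope on LRP2 for both sexes. The part of LRP2 or of tubule content in the sex differences was not tested.

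Among the neighbouring lists, 3 of 9 other inner membrane transporters tested were lower in females over all 17 libraries and 0 higher, against 13.2% of all genes lower. SFXN1 and SFXN2, sideroflexins of the inner membrane, differed by -1.85 (adjusted p = 0.0279, limma) and -1.94 (adjusted p = 0.0224). Both followed LRP2 (r = 0.88 and 0.87). Of 7 enzymes that work beside carriers 2 were lower, among them CPT2, the matrix carnitine palmitoyltransferase, at -1.19 (adjusted p = 0.0109, limma). None of the 5 regulators of mitochondrial biogenesis tested was called over the 17 libraries, and 1 of 5 was lower in females over the 14, where 36.3% of all genes were.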

How the data were processed

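RNA from kidney cortex biopsies of 17 baboons was sequenced from stranded mRNA libraries, per the labels' protocols. The authors deposited a signal value for each transcript in each library, in separate tables for females and males. Each value was taken as scaled read abundance plus 1, as no value deposited for the females was below 1. The same offset was taken for the males. Partek is named in the submitters' processing notes, whereas aligner, scaling and build are not stated in the labels or headers used here. Coordinates and sequence names are those of the deposited tables. The other columns that the authors deposited, module colours and differences between pairs of libraries, were read only as the authors' own values. Low values in single-transcript genes tended to lie on a step constant within a library, so signal was taken as not divided by length. Between 57.0% and 73.2% of low values fell within 0.1 of a step from a whole multiple, where random values would give 20%, so reads could not be recovered for a count model. The share was 63.7% to 81.2% in genes spanning under 5000 bases of genome, introns included. In genes spanning at least 20000 bases it was 49.9% to 66.9%, lower in every library. Genes were not split by transcript length.

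The male table ended within a row after 17119 complete rows, all found among the 26644 female transcripts (64.3%), and the rest was not analysed here. The offset was subtracted and transcripts were summed per gene, over all transcripts within females and over shared transcripts across the sexes. Testing was limited to genes reaching a signal of 1 in 8 or more libraries, 9415 genes in all, with all 27 members that have shared transcripts among them. The sexes were compared with limma 3.58.1 in R 4.3.3 (values as log2(signal + 1), trended prior variance), and p-values were adjusted by Benjamini-Hochberg over all genes at a threshold of 0.05. That scale understates changes of low genes. Relations to LRP2 and UMOD used 100000 permutations per gene within the 14 kidney libraries, enumerated exactly within a sex, with Python 3.11.15, numpy 2.4.6 and scipy 1.17.1. Both procedures were tested on simulated data.

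Muscle-rich and kidney libraries were compared by range only. The rule for described members took those of highest level, of highest and lowest muscle to kidney ratio, those called with sex, LRP2 or UMOD, and fixed pairs of related carriers. For 1 member, counted in the totals, values are not reported here. The ratio was read from the full female table, because shared transcripts leave out most of the muscle-high transcripts. The members, the lists and the muscle-rich libraries were chosen with earlier results of these data known. The labels name the animals and give each 1 library, so the limma p-values measure the spread between animals within a sex. The main LRP2 and UMOD permutations pooled the kidney libraries of both sexes. Their p-values therefore rest on differences between the sexes as well as within them.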

Additional observations from a re-analysis of the deposited data

Results flagged for a closer look

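Within each sex, 64 sets of log2(signal + 1) values of single members were searched for a library far from the rest by Dixon's criterion, which chance meets in about 5% of sets. Of the 11 sets that met it, 9 had male 6, a muscle-rich library, as the lowest of the 9 males. Its log2 levels were 4.39 for SLC25A5 (next lowest male 7.02), 0.05 for SLC25A12 (1.57), 1.74 for SLC25A13 (4.51), 0.39 for SLC25A17 (2.47), 0.0 for SLC25A21 (1.67), 1.38 for SLC25A22 (3.50), 0.48 for SLC25A27 (3.16), 0.55 for SLC25A35 (1.88) and 0.0 for SLC25A45 (3.05). For SLC25A12, SLC25A22, SLC25A27 and SLC25A45 these levels cover shared transcripts only, and so does the SLC25A28 level given next. Female 1 was the lowest female for SLC25A17 at 0.0, with the next at 2.11, and female 2 was the highest female for SLC25A28 at 4.3, with the next at 3.34. Both are the muscle-rich females.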

How the results depend on the processing

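Of the 27 members, 4 were called between the sexes over 17 libraries, and the count was 2 with a pseudocount of 0.1 (SLC25A13 at adjusted p = 0.0591 and SLC25A37 at 0.0520, limma), 2 of the 14 members tested with a signal filter of 10 (SLC25A37 and SLC25A40 were not among them), 2 with median scaling and with upper quartile scaling, 0 with age as a term and 0 with series B males only. It was 12 without the 3 muscle-rich libraries, 9 with median scaling as well, 6 and 11 there with series A or series B males only, and 4 there with LRP2 as a term. Of 9415 genes, 1018 were called with the pseudocount of 0.1, and of 4161 genes 770 with the signal filter of 10. Leaving out 1 library gave 1 to 11 members, against 658 to 2334 of 9415 genes. Within the 14 kidney libraries it gave 11 to 14 members, against 3087 to 4011 genes. With age as a term the differences of SLC25A10, SLC25A13 and SLC25A5 turned to 0.54, 0.97 and 1.35. The LRP2 count of 6 was 14 over all 17 libraries, 12 with Spearman's rho, 14 without the 2 farthest libraries, 11 without female 3, 5 with CUBN for LRP2 (SLC25A5 at adjusted p = 0.0920, permutation test), 6 with a pseudocount of 0.1 (SLC25A46 in place of SLC25A21, at 0.0923), and 0 within females or males, with Pearson, Spearman or median scaling. Of all 9414 genes, 4193 were called over 17 libraries, 3651 with rho, 4223 without the 2 farthest libraries and 3469 without female 3. With CUBN 1495 of 9413 genes were called, and with the pseudocount of 0.1 1771 of 9414. The LRP2 count of 0 within females decides nothing, since few permutations exist there. Within females SLC25A5 turned to r = -0.34 and rho = -0.0857. The UMOD count of 0 was 11 over all 17 libraries, against 4206 of 9414 genes, and 0 in the other settings. Of the muscle-rich counts, 0 above and 7 below became 1 and 5 with median scaling, 20 and 8 in females with all transcripts, and 15 and 12 there with median scaling; leaving out 1 library gave 0 to 3 above and 7 to 9 below. Settings that add a left-out library, a series or a scaling to the kidney set, the female-only contrast and the within-sex rho were chosen after seeing the data. Levels per transcript length were not run, as no length is at hand. No paired analysis was possible because no label ties a female to a male. Depth limits SLC25A14, SLC25A16 and SLC25A21, whose signals are a few reads in the shallow libraries.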

Other observations

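Transcript variants of SLC25A13 differed in how they related to sex, a pattern read after its values were seen and not tested. Variant X2 had a signal of 1.495 to 6.92 in the 6 kidney females and 13.6 to 31.1 in the 8 kidney males, without overlap. Variant X4 had 3.75 to 11.2 in the kidney females and 3.66 to 14.3 in the kidney males, which overlap. X2 held 13.96% of their sum in each of females 2, 5 and 6, the same share to the second decimal, and the split of reads between the variants is that of the authors' tool. In the muscle-rich libraries X2 was at 3.32, 0.26 and 0.33 and X4 at 0.23, 1.63 and 2.02, so male 6 was below the kidney males for both. The authors' deposited table of females places X2 in the darkturquoise module and X4 in the pink module.

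Carriers named by gene number or under another family name also had male values. ADP/ATP translocase 3 (LOC101025041) had a signal of 28.6 to 74.9 in the kidney females, 59.1 to 102 in the kidney males and 51.0 in male 6. The related entry LOC101000644 had 81.5 to 105 in the kidney females, 86.4 to 120 in the kidney males and 67.0 in male 6. MTCH2, an insertase of the outer membrane from the same superfamily, had 26.1 to 41.9 in the kidney females, 47.9 to 77.0 in the kidney males and 48.4 in male 6, and was called lower in females (-0.60, adjusted p = 0.0309, limma).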
